A study of Teleogryllus oceanicus with 18 samples.

Results

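A set of 103 transcripts made up the abundant end of the expression profile of uninfested male *Teleogryllus oceanicus* field crickets. The set was defined by level: a mean of at least 1000 CPM in the uninfested pools of both populations, out of 23748 genes tested and 32729 genes in the annotation. CPM are read pairs of a gene scaled to 1000000 read pairs in genes, after TMM normalization (trimmed mean of M values, which sets libraries to a common scale), and they are not divided by transcript length, so an order by CPM is an order by share of reads and not by number of molecules. The control levels chose the members, so those levels and every difference from the controls are given as a description without a test. Tests were made only between infested groups.

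The study set out to learn how crickets respond to larvae of the parasitoid fly *Ormia ochracea*, and compared crickets from Kauai, where the fly occurs, with crickets from Mangaia, where it does not. Adult males of laboratory colonies either received planidia, the mobile first larval stage of the fly, taken from flies caught in California, or were handled the same way with no larva transferred. The 6 groups were Mangaia controls, Mangaia at day 4 and day 7 after infestation with 2 planidia, and the same 3 stages from Kauai, each with 3 libraries. Each library pooled 2 crickets. Mangaia pools held normal-wing males, and Kauai pools held 1 flatwing and 1 normal-wing male, so wing form and population cannot be fully told apart. RNA came from body tissue without head, digestive tract, pronotum, wings and legs, and larvae had been dissected out.

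The insect abdomen holds fat body, the organ that stores nutrients and makes most proteins of the haemolymph, together with body wall muscle, cuticle-forming epidermis and, in males, testes and accessory glands. A small number of transcripts usually takes a large share of such mRNA, typically those of muscle fibres, of the mitochondrial and ribosomal machinery and of secreted proteins. An endoparasitoid larva feeds on these tissues from within. In bulk tissue, fewer cells of a type and less RNA per cell cannot be told apart. All 103 members carried assembly identifiers of the form MSTRG, with no name or sequence in the sources used here, so the labelled tissue could not be checked against its markers and no member is given a role. The 53 immune genes for which the study listed identifiers held 0 members. With 103 members among 23748 tested genes, few or none would be expected in a list of this length, so nothing is read from the 0. The most abundant of the 53 listed genes, MSTRG.21064, annotated as ADP-ribosylation factor 1, averaged 366.4 CPM in Mangaia controls and 278.6 CPM in Kauai controls.

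Libraries held 6266925 to 8023588 read pairs in genes, and the members held 1957151 to 3140900 of these, so counting error was small beside the spread between pools. TMM factors ran from 0.846 to 1.151 and were 0.846 to 0.927 in the Kauai controls. Read pairs that mapped to several places and were counted in no gene made up 6.57% to 14.4% of a library. The Mangaia day 7 pool 2 stood apart: its mean correlation with the other pools of its group over log2 CPM was the lowest of the 18 (0.902), and its unmapped share was the highest (11.6%). The pools were separate samples, and p-values measure the spread between them.

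Control levels of the members spanned from 1046 to 37523 CPM, as means over the 6 control pools, with a median of 1996 CPM. In 52 members the control mean was under 2000 CPM, while 12 members held the upper 50% of all member CPM. Just inside the threshold lay MSTRG.1026 (1096 CPM in Mangaia controls and 1024 CPM in Kauai controls), MSTRG.5874 (1451 and 1009 CPM) and MSTRG.23002 (1008 and 1154 CPM). Just outside lay MSTRG.14423 (1039 and 991 CPM), MSTRG.20050 (1141 and 982 CPM) and MSTRG.23236 (1281 and 977 CPM). The median coefficient of variation of the members between the 3 pools of a group was 12.6% in Kauai controls and 20.7% in Mangaia at day 7, with the other groups between. Over all tested genes it was 23.3% to 34.7%. Single members varied far more than this: MSTRG.22671 had the largest coefficient in both day 7 groups, at 111% in Mangaia and 106% in Kauai.

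The members held 37.9% ± 1.06 (SD, n = 3) of the gene read pairs in Mangaia controls, 36.4% ± 2.01 at day 4 and 33.9% ± 0.99 at day 7. In Kauai they held 41.8% ± 2.03 in controls, 37.6% ± 2.47 at day 4 and 32.0% ± 1.16 at day 7. The Mangaia pools ranged from 34.6% to 38.6% at day 4 and from 32.7% to 34.5% at day 7, and the Kauai pools from 35.3% to 40.2% and from 31.2% to 33.3%. In both populations the day 7 pools therefore lay under all day 4 pools, in Mangaia by a narrow margin. Each pool's own 103 genes with the most read pairs, which could differ between pools, were also summed. Their mean share was 38.3%, 39.2% and 38.9% in Mangaia controls, day 4 and day 7, and 42.7%, 39.5% and 36.2% in Kauai.

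The lower share at day 7 lay mostly in the 10 most abundant members, as the plot of shares by pool shows. They held 16.2% ± 0.57 of gene read pairs in Mangaia controls, 16.6% ± 0.91 at day 4 and 13.2% ± 0.55 at day 7, and 21.4% ± 2.26, 18.4% ± 3.02 and 11.6% ± 0.88 in Kauai. The other 93 members together held 21.7%, 19.8% and 20.7% in Mangaia and 20.3%, 19.3% and 20.4% in Kauai. The 4 most abundant alone, MSTRG.17113, MSTRG.5026, MSTRG.22301 and MSTRG.4435, held 9.75% in Mangaia controls and 6.77% at day 7, against 13.7% and 4.90% in Kauai. From controls to day 7 the summed share of the set differed by -4.03 percentage points in Mangaia, made up of 6.78 points in members that gained and -10.8 points in members that lost. In Kauai it differed by -9.76 points, made up of 7.12 and -16.9 points. The set and its 10 most abundant members were ranked on control values, so a lower share after the controls can in part follow from that choice. From day 4 to day 7, which leaves the controls out, the summed share differed by -2.52 points in Mangaia and -5.63 points in Kauai. Multi-mapped pairs in Kauai overlapped between controls (10.9% to 12.0%) and day 4 (10.2% to 14.4%) and were lower at day 7 (6.57% to 8.28%). In Mangaia they made up 10.1% to 12.3%, 8.68% to 9.60% and 8.52% to 11.2%. Their part in the shares was not tested.

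**Figure D1:**
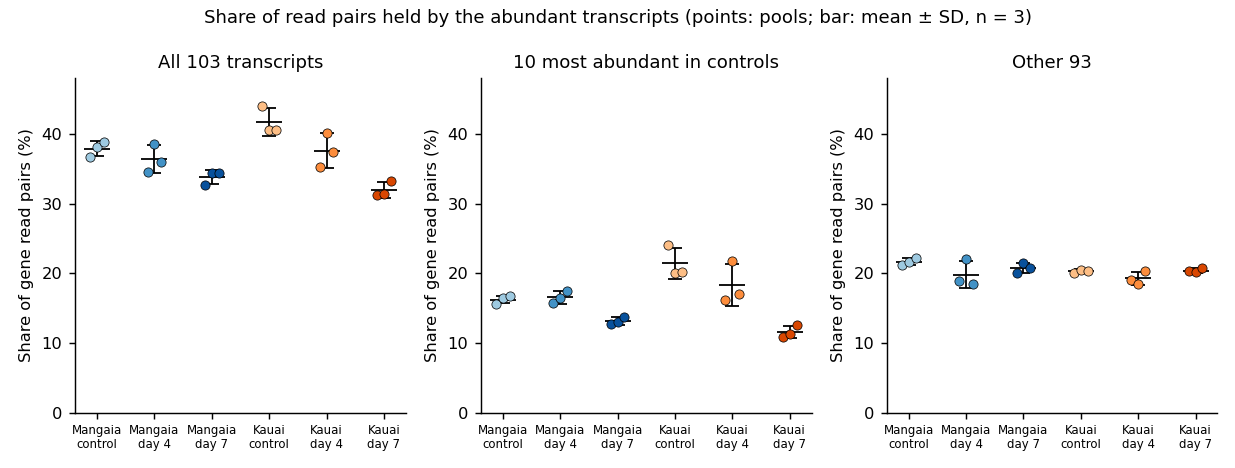
Share of gene read pairs (%) held by all 103 abundant transcripts, by the 10 most abundant of them and by the other 93, in each group. The transcripts were chosen and ranked by their control levels. Points are the 3 pools of a group and bars the mean ± SD; the 10 most abundant went from 21.4% in Kauai controls to 11.6% at day 7, while the other 93 lay between 18.4% and 22.2% in every pool.

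The largest loss of share in both populations was in MSTRG.22301, from 2.20% to 0.82% of gene read pairs between Mangaia controls and day 7 and from 3.58% to 1.03% in Kauai. MSTRG.8419 went from 1.22% to 0.35% in Mangaia and from 1.59% to 0.57% in Kauai, and MSTRG.4435 from 1.18% to 0.31% and from 2.66% to 0.43%. Kauai control pools measured 68808, 29447 and 25779 CPM for MSTRG.22301 and 32206, 11848 and 11070 CPM for MSTRG.8419. Their Kauai control means thus leaned on pool 1, though every Kauai control pool lay above every Kauai day 7 pool in both. MSTRG.5026 and MSTRG.17113 lost in Kauai, from 3.77% to 1.57% and from 3.64% to 1.87%. The largest gains were in the same 4 members in both populations. MSTRG.9788 went from 1.09% to 2.69% in Mangaia and from 1.76% to 3.16% in Kauai. MSTRG.9224 went from 0.56% to 1.74% and from 0.50% to 2.15%, and MSTRG.4304 and MSTRG.2838 gained less than these.

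Of the 10 most abundant members, MSTRG.17113 had the highest control mean. Its pools measured 38683, 31289 and 30667 CPM in Mangaia controls, 25682, 24604 and 28381 CPM at day 4 and 29172, 34160 and 30995 CPM at day 7. In Kauai they measured 37168, 43220 and 44113 CPM in controls, 36094, 54456 and 36048 CPM at day 4 and 13852, 16384 and 21793 CPM at day 7. All 3 Kauai day 7 pools lay under every other pool of the study, whereas all 3 Mangaia day 7 pools lay above the Mangaia day 4 pools. Between day 4 and day 7 MSTRG.17113 fell in Kauai. Its log2 ratio was -1.28 (SE 0.23, adjusted p = 0.00602, edgeR's quasi-likelihood test). The same test gave 0.26 (SE 0.23, adjusted p = 0.42) in Mangaia.

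MSTRG.5026 and MSTRG.20702 followed the same course. The pools of MSTRG.5026 measured 24452, 18870 and 23948 CPM at day 4 and 23683, 29475 and 25130 CPM at day 7 in Mangaia, against 29422, 44378 and 25759 CPM and 11750, 13380 and 18350 CPM in Kauai. Its Kauai groups did not overlap, and it fell there by 1.20 on the log2 scale (SE 0.28, adjusted p = 0.0106, edgeR), a call that was lost without Kauai day 4 pool 2 (-0.92, adjusted p = 0.0571). MSTRG.20702 measured 9193, 13965 and 9386 CPM at day 4 in Kauai and 3519, 4192 and 6025 CPM at day 7, and it fell by 1.24 (SE 0.23, adjusted p = 0.00622, edgeR). Its Mangaia pools overlapped, at 6678 to 7723 CPM and 7512 to 9114 CPM.

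MSTRG.22301, MSTRG.8419 and MSTRG.7731 were not called between day 4 and day 7 in either population. MSTRG.22301 measured 23961, 14923 and 25983 CPM at day 4 and 14770, 1883 and 9545 CPM at day 7 in Mangaia, and 11465, 30272 and 16034 CPM and 7037, 6651 and 14787 CPM in Kauai. Its log2 fold change of day 7 against day 4 was -1.31 (SE 0.61, adjusted p = 0.124, edgeR) in Mangaia, and the Kauai value was -1.02 (SE 0.61, adjusted p = 0.223). MSTRG.8419 had values of -1.49 and -0.94, and MSTRG.7731 of -0.97 and 0.57, none of which passed the test.

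MSTRG.9788 and MSTRG.8148 were the members of these 10 with higher means at day 7 than at day 4 in both populations, and neither was called. MSTRG.9788 measured 7264, 14553 and 22748 CPM at day 4 and 23324, 19998 and 40123 CPM at day 7 in Mangaia, and 26473, 21532 and 21742 CPM and 31518, 37750 and 18466 CPM in Kauai. The groups overlapped in both populations. MSTRG.8148 varied least of the 10, from 5467 to 8741 CPM over all 18 pools. MSTRG.3000 showed the opposite: single pools of 31347 CPM in Mangaia controls and 37335 CPM at day 4 lay far above their companions, which measured 6834 to 8954 CPM.

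**Figure D2:**
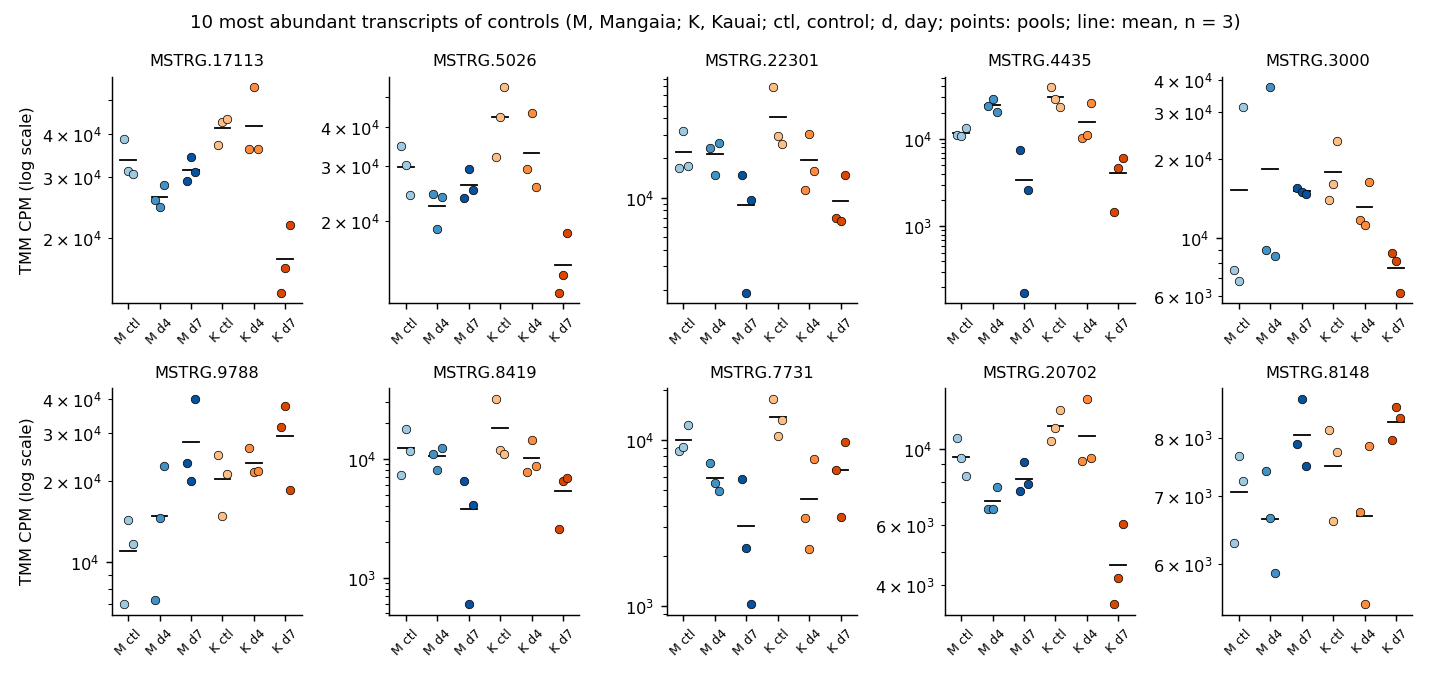
TMM CPM of the 10 most abundant transcripts of uninfested crickets in every pool, on a log axis whose range differs between panels. Points are pools and lines the mean of 3; for MSTRG.17113, MSTRG.5026 and MSTRG.20702 the Kauai day 7 pools lie lowest, and Mangaia day 7 pool 2 is the lowest point of MSTRG.22301, MSTRG.4435 and MSTRG.8419.

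Differences from the controls use the values that chose the members and are given as they stand. At day 4 the log2 fold change was above 0 in 26 members and below 0 in 77 in Mangaia, with a median of -0.355, and above 0 in 20 and below 0 in 83 in Kauai, with a median of -0.22. At day 7 it was above 0 in 54 and below 0 in 49 in Mangaia (median 0.06), and above 0 in 21 and below 0 in 82 in Kauai (median -0.39). The medians over all tested genes were 0.00 and 0.01 at day 4 and -0.01 and 0.07 at day 7, in the same order of populations, and nothing is read from these differences. In group means, 54 members in Mangaia went down to day 4 and up again to day 7, 23 went down at both steps and 15 up at both. In Kauai 50 went down at both steps, 33 went down and up, and 10 up at both. These courses use the control means that chose the members and have no share over all tested genes beside them. Nothing is read from their counts.

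Between day 4 and day 7 in Mangaia, more members rose than fell. The fold changes compared no control pool, but the controls entered the scaling and the shared estimate of spread behind the calls. In all, 28 rose (27.2%, beside 9.79% of all tested genes), and 7 fell (6.80%, beside 16.8% of all tested genes). The median SE was 0.271 in members and 0.454 over all tested genes, so small changes are called more easily in members. The rises were 0.47 to 2.10 on the log2 scale with a median of 0.79, and the falls -3.61 to -1.56. The median log2 fold change was 0.30 over the members and 0.08 over all tested genes. The groups did not overlap in 42 members that were higher at day 7 (40.8%, against 19.9% of tested genes) and in 11 that were lower (10.7%, against 23.6%). The number of members called, beside 26.6% of all tested genes, went from 35 to 21 without Mangaia control pool 1, to 21, 21 and 20 without Mangaia day 4 pools 1, 2 and 3, and to 22 without Kauai day 4 pool 1, and was 25 without the pool that stood apart, Mangaia day 7 pool 2. It was 8 (6 higher, 2 lower) when only the day 4 and day 7 pools of Mangaia entered the fit, and with library size as the only scaling it was 24, split 16 higher to 8 lower.

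The largest rises among the called members in Mangaia were in MSTRG.17344, MSTRG.1246 and MSTRG.14384. MSTRG.17344 measured 570, 340 and 532 CPM at day 4 and 1007, 3414 and 1750 CPM at day 7, a log2 ratio of 2.10 (SE 0.48, adjusted p = 0.00823, edgeR). MSTRG.1246 measured 567, 415 and 468 CPM at day 4 and 1431, 1935 and 2014 CPM at day 7, a log2 ratio of 1.89 (SE 0.32, adjusted p = 0.00238). MSTRG.14384 went from 1156, 956 and 997 CPM to 2547, 4109 and 3553 CPM, a log2 ratio of 1.71 (SE 0.34, adjusted p = 0.00431). In all 3 the pools of day 4 and day 7 stood apart. The day 4 means of 481, 483 and 1036 CPM lay under the Mangaia control means of 1685, 1514 and 2041 CPM, and in Kauai the same test gave 1.20, -0.03 and 0.29, with no call.

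The largest falls in Mangaia were in MSTRG.15292, MSTRG.4435 and MSTRG.4432. MSTRG.15292 measured 1541, 1007 and 1681 CPM at day 4 and 200, 61.6 and 85.9 CPM at day 7, a log2 ratio of -3.61 (SE 0.71, adjusted p = 0.00404, edgeR). MSTRG.4435 went from 23865, 29065 and 20196 CPM to 7421, 172 and 2610 CPM, and its log2 fold change was -2.84 (SE 0.84, adjusted p = 0.024). The call of MSTRG.4435 was lost without Mangaia day 4 pool 2 (-2.71, adjusted p = 0.0514) or Mangaia day 7 pool 3 (-2.70, adjusted p = 0.0728). MSTRG.4432 went from 4946, 5763 and 4616 CPM to 1532, 35.4 and 590 CPM, with -2.83 (SE 0.81, adjusted p = 0.0207), and was lost without Mangaia day 7 pool 3 (-2.73, adjusted p = 0.0636). No day 7 pool reached a day 4 pool in any of them. Mangaia day 7 pool 2, the pool that stood apart, was more than 5 times lower than the next lowest pool of its own group in 6 members: MSTRG.22301, MSTRG.4435, MSTRG.8419, MSTRG.4432, MSTRG.4429 and MSTRG.8254. Without it MSTRG.4435 had -2.29 (adjusted p = 0.0182, edgeR) and MSTRG.15292 -3.32 (adjusted p = 0.0157).

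In Kauai more members fell than rose between day 4 and day 7, as among all tested genes. A rise was called in 2 members (1.94%, beside 9.18% of all tested genes) and a fall in 20 (19.4%, beside 15.5% of all tested genes). Of these 20, 7 were called as higher in Mangaia, 4 as lower and 9 not at all. The falls were -3.08 to -0.47 on the log2 scale, with a median of -1.13, and the median over all members was -0.03, against 0.04 over all tested genes. The median SE was 0.272 in members and 0.453 over all tested genes. The groups did not overlap in 9 members that were higher at day 7 (8.74%, against 19% of tested genes) and in 32 that were lower (31.1%, against 24%). The number called, beside 24.7% of all tested genes, went from 22 to 13 without Kauai day 4 pool 1, to 10 without Kauai day 4 pool 2 and to 13 without Kauai day 7 pool 1. It was 11 with only the compared pools in the fit, and with library size as the only scaling the split was 6 higher to 15 lower, while the median over all genes moved from 0.04 to 0.12.

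MSTRG.15292, MSTRG.8254 and MSTRG.9825 had the largest falls in Kauai. MSTRG.15292 measured 1482, 2633 and 553 CPM at day 4 and 42.3, 157 and 352 CPM at day 7, a log2 ratio of -3.08 (SE 0.69, adjusted p = 0.00972, edgeR). MSTRG.8254 measured 1602, 1951 and 1923 CPM and then 91.3, 423 and 398 CPM, with -2.59 (SE 0.83, adjusted p = 0.035). MSTRG.9825 measured 1127, 1305 and 652 CPM and then 96.6, 267 and 243 CPM, with -2.35 (SE 0.52, adjusted p = 0.00969). No pool of day 7 reached a pool of day 4 in these members. The call of MSTRG.8254 was lost without Kauai day 4 pool 1 or 2 or Kauai day 7 pool 1 or 2, with adjusted p from 0.0551 to 0.113.

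The 2 members that rose in Kauai changed little. MSTRG.14020 went from 1121, 980 and 1727 CPM to 1958, 2067 and 2045 CPM, a log2 ratio of 0.67 (SE 0.22, adjusted p = 0.0396, edgeR). MSTRG.9456 went from 1033, 816 and 1248 CPM to 1371, 1524 and 1601 CPM, with 0.54 (SE 0.19, adjusted p = 0.0489). In each case the pools did not overlap. The first call was lost without any 1 of 8 pools (Mangaia control pool 1, Mangaia day 4 pools 1 and 3, Kauai day 4 pools 1 and 2, and all Kauai day 7 pools; 0.51 to 0.61, adjusted p 0.0618 to 0.167), and the second without any 1 of 12 (Mangaia control pools 1 and 3, Kauai control pools 2 and 3, all Mangaia day 4 pools, Kauai day 4 pools 1 and 2, and all Kauai day 7 pools; 0.38 to 0.54, adjusted p 0.0503 to 0.209).

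Mangaia and Kauai shared no library in the comparisons of day 7 with day 4, so the 2 lists can be set side by side. Both came from the same fit, with a shared estimate of spread and shared scaling, so the lists are not fully independent. Both populations called a fall in 4 members (3.88%, against 10.7% of all tested genes): MSTRG.15292, MSTRG.8254, MSTRG.9825 and MSTRG.19481. A rise in both was called in 0 members (2.15% of all tested genes). The pools of MSTRG.19481 measured 5363, 5493 and 6172 CPM in Mangaia controls, 1878, 1890 and 955 CPM at day 4 and 321, 348 and 286 CPM at day 7. In Kauai it measured 2557, 9502 and 3527 CPM, then 207, 1298 and 362 CPM, then 56.6, 210 and 195 CPM. No pools overlapped between stages in Mangaia, and in Kauai day 4 and day 7 overlapped by 1 pool of each. Its log2 fold change between day 4 and day 7 was -2.31 (SE 0.64, adjusted p = 0.0186, edgeR) in Mangaia, and the Kauai value was -2.01 (SE 0.64, adjusted p = 0.0333). It was chosen for display after its values were seen.

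A rise in Mangaia together with a fall in Kauai was called in 7 members, which is 6.80% of the set, against 0.627% of all tested genes. These were MSTRG.11740, MSTRG.13503, MSTRG.18679, MSTRG.23758, MSTRG.8494, MSTRG.3775 and MSTRG.1477. The reverse was called in 0 members (0.0337% of all tested genes). Without regard to calls, the pools did not overlap in this pair of directions in 15 members (14.6%, against 1.45% of all tested genes). In the reverse pair this held for 0 members (against 0.434%). The changes were small and alike: 0.57 to 0.86 in Mangaia and -0.97 to -0.47 in Kauai on the log2 scale. Members had smaller SEs: the median was 0.271 in Mangaia and 0.272 in Kauai, against 0.454 and 0.453 over all tested genes. Small changes are therefore called more easily in members, and the shares were not compared at equal SE.

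The pools of 3 of these 7 show the course. MSTRG.11740 measured 1507, 2450 and 2083 CPM at day 4 and 2663, 4107 and 4234 CPM at day 7 in Mangaia, and 3587, 3401 and 3266 CPM and then 2149, 2197 and 2067 CPM in Kauai. MSTRG.13503 measured 1411, 1884 and 1947 CPM and then 2134, 2918 and 3125 CPM in Mangaia, and 2952, 3151 and 2416 CPM and then 1485, 1474 and 1758 CPM in Kauai. MSTRG.3775 measured 842, 1156 and 1012 CPM and then 1274, 1552 and 1845 CPM in Mangaia, and 1743, 1858 and 1520 CPM and then 854, 854 and 989 CPM in Kauai. In all of these the low groups were Mangaia at day 4 and Kauai at day 7, and no pool of day 4 reached a pool of day 7 in either population. The count of 7 went to 0 without Mangaia day 4 pool 1, Kauai day 4 pool 1 or Kauai day 7 pool 1, to 1 without Kauai day 7 pool 2, to 2 without Kauai day 4 pool 2 or Kauai day 7 pool 3, to 3 without Mangaia day 7 pool 3, and to 4 without Mangaia control pool 1, Mangaia day 4 pool 2 or 3, or Mangaia day 7 pool 2. With library size as the only scaling it was 0, with RLE size factors 4, and with only the compared pools in the fit 0.

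**Figure D3:**
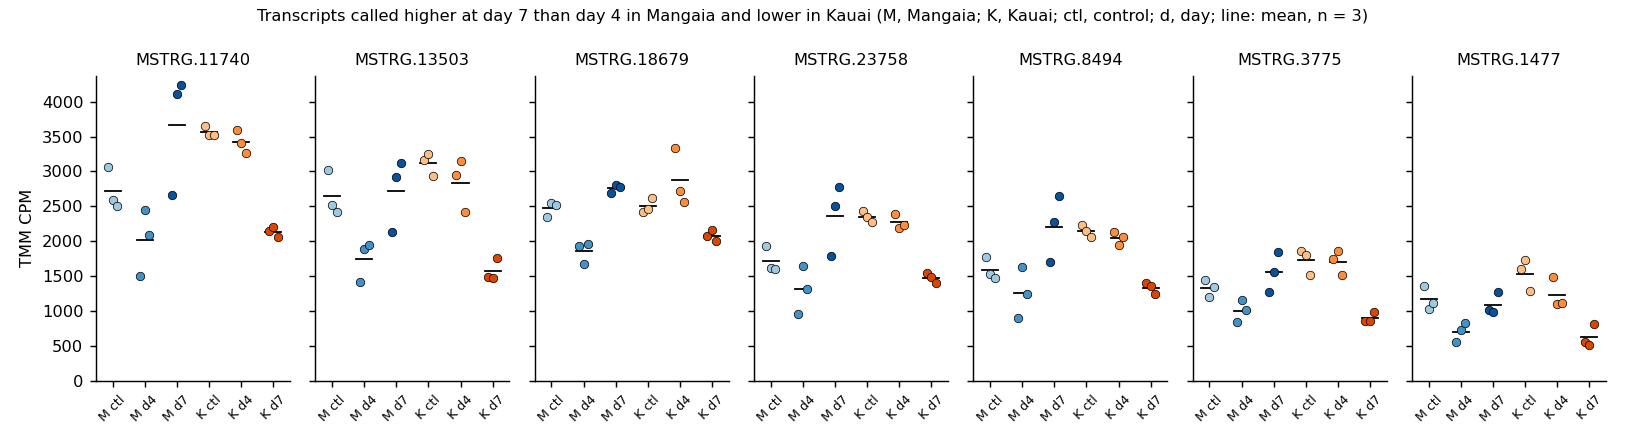
TMM CPM by pool of the 7 abundant transcripts that were called higher at day 7 than at day 4 in Mangaia and lower in Kauai. Points are pools and lines the mean of 3; Mangaia day 4 and Kauai day 7 are the low groups, and changes lie between 0.57 and 0.86 (Mangaia) and between -0.97 and -0.47 (Kauai) on the log2 scale.

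The difference between populations in the change from day 4 to day 7 was tested directly. It was called in 18 members (17.5%), all with the lower change in Kauai, beside 1.16% of all tested genes. A higher change in Kauai was called in 0 members, beside 0.114% of all tested genes, with 1 member at an unadjusted p under 0.05. The differences ran from -2.40 to -0.99 on the log2 scale with a median of -1.49, and the median over all 103 members was -0.39, against 0.04 over all tested genes. The median SE of the difference was 0.385 in members and 0.638 over all tested genes, and the shares called were not compared at equal SE. The 18 included the 7 members of opposite direction. The number went to 0 without Kauai day 4 pool 1 or Kauai day 7 pool 1, to 1 without Kauai day 7 pool 2, to 4 without Mangaia day 4 pool 2 or Mangaia day 7 pool 3, to 6 without Mangaia day 4 pool 1, to 11 without Mangaia day 4 pool 3 and to 9 without Kauai day 4 pool 2, and was 15 without Mangaia day 7 pool 2. Library size as the only scaling, which moved the median of all genes from 0.04 to 0.23, called 0 members, and so did a fit without the controls. The share of multi-mapped pairs was lower at day 7 than at day 4 in all Kauai pools and overlapped in Mangaia, at the values given above, and their part in the difference was not tested.

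The largest of these differences were in MSTRG.11960, MSTRG.8729 and MSTRG.1246. MSTRG.11960 measured 602, 593 and 1262 CPM at day 4 and 1015, 993 and 1685 CPM at day 7 in Mangaia, against 2778, 2485 and 1362 CPM and then 727, 608 and 548 CPM in Kauai, and the difference was -2.40 (SE 0.47, adjusted p = 0.0173, edgeR). MSTRG.8729 measured 1557, 1361 and 2037 CPM and then 4402, 3357 and 5138 CPM in Mangaia, against 3817, 3596 and 3368 CPM and then 2122, 2170 and 2400 CPM in Kauai, and the difference was -2.07 (SE 0.39, adjusted p = 0.0151). In MSTRG.8729 no pools overlapped between days in either population, and in MSTRG.11960 the Mangaia pools did. For MSTRG.1246 the difference was -1.92 (SE 0.44, adjusted p = 0.0454), with Kauai pools of 808, 1003 and 954 CPM at day 4 and 701, 844 and 1169 CPM at day 7, which overlapped.

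These calls depended on single pools. That of MSTRG.8729 was lost without Mangaia day 4 pool 2, Kauai day 4 pool 1, or Kauai day 7 pool 1 or 2 (adjusted p 0.0505 to 0.0684). That of MSTRG.11960 was lost without any 1 of 8 pools (Mangaia day 4 pools 1 and 2, Mangaia day 7 pool 3, Kauai day 4 pools 1 and 2, and all Kauai day 7 pools; -2.50 to -2.13, adjusted p 0.0524 to 0.0729). That of MSTRG.1246 was lost without any 1 of 14 pools, all but Mangaia control pools 1 and 3, Mangaia day 7 pool 1 and Kauai day 7 pool 3 (-2.03 to -1.72, adjusted p 0.0559 to 0.13).

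Among the 10 most abundant members, MSTRG.17113 and MSTRG.20702 were called for the difference. For MSTRG.17113 it was -1.54 (SE 0.33, adjusted p = 0.0276, edgeR) and for MSTRG.20702 -1.46 (SE 0.33, adjusted p = 0.0377). The first call was lost without any 1 of 9 pools (all 3 Mangaia day 4 pools, Mangaia day 7 pools 2 and 3, Kauai day 4 pools 1 and 2, and Kauai day 7 pools 1 and 2; adjusted p 0.0587 to 0.0958). The second was lost without any 1 of 14 pools, all but Mangaia control pool 3, Mangaia day 7 pool 1, Kauai day 4 pool 3 and Kauai day 7 pool 3 (adjusted p 0.0523 to 0.12). For MSTRG.5026, whose Kauai fall was of like size, the difference was -1.41 (SE 0.39, adjusted p = 0.0914).

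**Figure D4:**
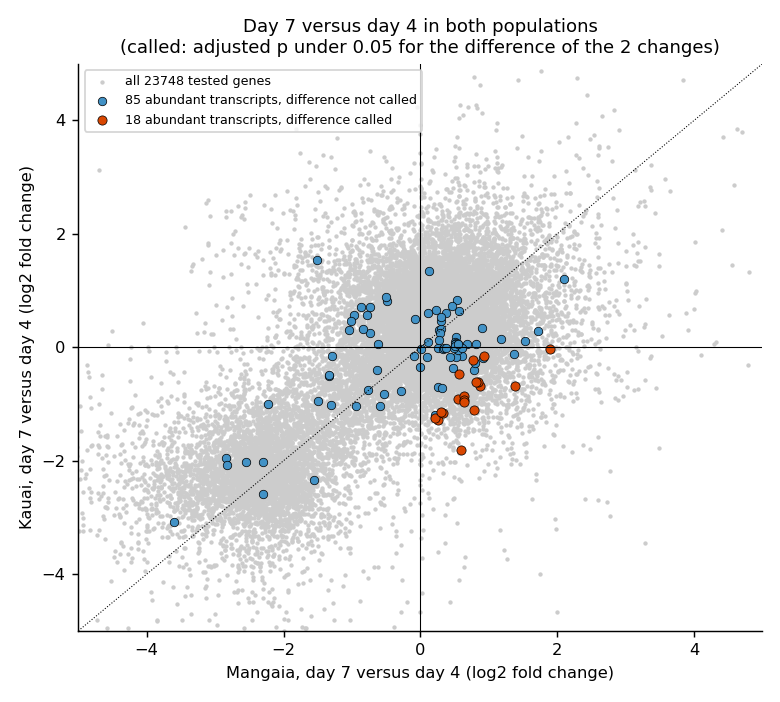
Log2 fold change of day 7 against day 4 in Mangaia (horizontal axis) and Kauai (vertical axis) for all 23748 tested genes (grey) and the 103 abundant transcripts (coloured), with the line of equal change dotted; genes outside the axes are not drawn. The 18 transcripts called for a difference between populations lie below the dotted line, with differences of -2.40 to -0.99.

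Between populations at day 4, no member was called by edgeR's quasi-likelihood test (0.152% of all tested genes were called), while 29 had an unadjusted p under 0.05, 27 of them higher in Kauai. The likelihood ratio test called 5 members, limma voom 2 and DESeq2 14. Leaving out Mangaia day 4 pool 3 gave 2 calls and leaving out Kauai day 4 pool 3 gave 4. For the unadjusted p and these alternatives no share over all tested genes is given, and nothing is read from their counts. The pools did not overlap in 31 members that were higher in Kauai (30.1%, against 8.69% of all tested genes) and in 3 that were lower (2.91%, against 7.57%).

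At day 7, 5 members (4.85%) were lower in Kauai than in Mangaia, beside 1.99% of all tested genes. A higher level in Kauai was called in 0 members, beside 1.54% of all tested genes, with 2 members at an unadjusted p under 0.05. The median SE was 0.273 in members and 0.448 over all tested genes, and the shares were not compared at equal SE. The pools did not overlap in 42 members that were lower in Kauai (40.8%, against 11.8% of all tested genes) and in 3 that were higher (2.91%, against 15%). The median log2 fold change was -0.37 over the members and 0.03 over all tested genes. The 5 were MSTRG.20371, MSTRG.23307, MSTRG.13503, MSTRG.3775 and MSTRG.11740. MSTRG.20371 measured 2824, 3938 and 3225 CPM in Mangaia and 1413, 1679 and 2278 CPM in Kauai, a log2 ratio of -0.90 (SE 0.23, adjusted p = 0.045, edgeR). MSTRG.23307 measured 2485, 3307 and 3201 CPM and 1484, 1618 and 1914 CPM, with -0.84 (SE 0.20, adjusted p = 0.0372), and MSTRG.13503 had -0.79 (SE 0.20, adjusted p = 0.0417). No pool of Kauai reached a pool of Mangaia in these members.

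The count of 5 at day 7 changed with most of the pools left out. It went to 0 without Mangaia control pool 1, Mangaia day 4 pool 3, Mangaia day 7 pool 2 or 3, Kauai day 4 pool 1 or any Kauai day 7 pool, to 2 without Mangaia control pool 2 or Kauai control pool 2, to 3 without Kauai day 4 pool 3, to 8 without Kauai control pool 3 and to 14 without Kauai day 4 pool 2. The call of MSTRG.20371 was lost without any 1 of 15 pools, all but Kauai control pools 1 and 3 and Kauai day 4 pool 2 (-1.09 to -0.70, adjusted p 0.053 to 0.188). The call of MSTRG.23307 was lost without any 1 of 9 pools (Mangaia control pool 1, Mangaia day 4 pools 1 and 3, Mangaia day 7 pools 2 and 3, Kauai day 4 pool 1 and all Kauai day 7 pools; adjusted p 0.0501 to 0.151). The call of MSTRG.13503 was lost without any 1 of 10 (the same pools but with Mangaia control pool 2 and Kauai control pool 2 added and Mangaia day 4 pool 1 left out; adjusted p 0.0512 to 0.151). Other tests called 13 members (likelihood ratio test), 16 (limma voom) and 31 (DESeq2). No share over all tested genes is given for these tests, so the counts are not read as particular to the members. With library size as the only scaling the count was 0, with only the compared pools in the fit 0, with the replicate block 0, with no filter on low counts 3 and with edgeR's filterByExpr 13.

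A property that the rule did not use was whether the annotation gave a member a strand. A transcript assembled from unstranded reads takes its strand from splice sites, and a gene without one is counted alike in both strand columns. By that sign 26 of the 103 members had no strand (25.2%, against 45.1% of tested genes), with 15.0% of gene read pairs in controls. A further 71 had 1 strand and lost no pairs, and 6 lost pairs to an overlapping gene on the other strand. Of the 26 without a strand, 11 fell in Kauai between day 4 and day 7 (42.3%, against 19.1% of all tested genes without a strand), and 0 rose. Of the 71 with 1 strand, 8 fell there (11.3%, against 12.4%). Members without a strand made up all 5 called between populations at day 7, 9 of the 18 called for the difference in change and 6 of the 7 of opposite direction, all but MSTRG.18679. Over all tested genes the difference in change was called as lower in Kauai in 1.03% of genes without a strand and in 1.21% of those with 1 strand. For the 5 at day 7, the 7 of opposite direction and the 0 that rose, no such share by strand was computed. Nothing is read from those counts.

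Assembly identifiers are usually given in order along the genome, and 7 members lay within 3 steps of another member (6.80%, against 2.42% of tested MSTRG genes). MSTRG.4429, MSTRG.4432 and MSTRG.4435 formed one run. MSTRG.4429 measured 2240, 1736 and 2046 CPM in Mangaia at day 4 and 632, 27.0 and 374 CPM at day 7, a log2 ratio of -2.54 (SE 0.76, adjusted p = 0.0252, edgeR). All 3 were called as lower in Mangaia, and in Kauai they had -2.02, -2.09 and -1.96, with adjusted p of 0.0596, 0.0625 and 0.0866. The ratio of MSTRG.4432 to MSTRG.4435, in CPM, stayed between 0.182 and 0.331 in all 18 pools, although MSTRG.4435 itself ran from 172 to 38972 CPM. The ratio of MSTRG.4429 to MSTRG.4435 varied more, from 0.0564 to 0.316. Whether they are near-identical copies or parts of 1 gene was not tested, and they are not treated here as independent.

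The other neighbours were MSTRG.23834 with MSTRG.23835 and MSTRG.13501 with MSTRG.13503. The ratio of MSTRG.23834 to MSTRG.23835 stayed between 0.697 and 0.949 in all pools. Both lost pairs to an overlapping gene, so their counts are uncertain. MSTRG.13503 parted from MSTRG.13501 in Kauai: the ratio of their CPM was 0.527 to 0.946 at day 4 and 0.311 to 0.334 at day 7. In Mangaia it overlapped between the days, at 0.342 to 0.566 and 0.473 to 0.748.

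Most members kept a level of at least 1000 CPM after infestation. In both day 4 groups 92 genes had a mean of at least 1000 CPM, of which 81 were members, and in both day 7 groups 101 genes, of which 76 were members. The level was kept in all 6 groups by 71 members. The day 7 mean was under 50% of the control mean in 27 members in Mangaia and 29 in Kauai, and more than double in 6 and 5 members. Among these were MSTRG.9224, with control pools of 3873 to 7600 CPM and day 7 pools of 10145 to 25862 CPM in Mangaia, and MSTRG.2838, with 1603 to 2429 CPM and 5029 to 8472 CPM in Kauai. Neither was called between day 4 and day 7. The counts set against control means have no share over all tested genes beside them, and nothing is read from them.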

How the data were processed

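The 18 RNA-seq libraries of poly(A) RNA, 3 for each of 6 groups, were sequenced, trimmed with Trimmomatic 0.33, mapped with STAR 2.5.3a in 2 rounds and assembled into gene models with StringTie 1.3.4d by the authors. The authors deposited counts of uniquely mapped read pairs per gene without regard to strand, beside a count for each strand. Pairs in no gene, unmapped and multi-mapped pairs included, were 26.8% to 31.5% of all pairs and were left out here.

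A gene was tested if it reached 1 CPM in 2 or more libraries. TMM factors and a quasi-likelihood model over the 6 groups came from edgeR 4.0.16 (R 4.3.3). Tests were two-sided, adjusted by Benjamini-Hochberg over all 23748 genes, and an adjusted p under 0.05 is a call. The SE of a log2 value was derived from it and the F statistic. Correlations between libraries used log2 CPM with a prior count of 2. A gene was taken to lack a strand where each strand count was within 1% of the unstranded count. Alternatives were a likelihood ratio test, DESeq2 1.42.0, voom of limma 3.58.1, other scalings and filters, fits of only the compared groups, the replicate number as a block, and leaving out each library.

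Members and lists were chosen with earlier results of these data known. Named were the 10 most abundant members, the 3 largest called changes in each direction of each comparison and the 3 genes on either side of the threshold. Members of the sets of opposite or shared direction, neighbouring identifiers and the largest share changes were added after their values were seen.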

Additional observations from a re-analysis of the deposited data

Results flagged for a closer look

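The change from day 4 to day 7 differed between Kauai and Mangaia in 18 of the 103 abundant transcripts by the interaction term of edgeR's quasi-likelihood model, at an adjusted p under 0.05, with the lower change in Kauai each time. As Kauai minus Mangaia on the log2 scale, the difference was -2.40 in MSTRG.11960, -2.07 in MSTRG.8729, -1.92 in MSTRG.1246 and -1.90 in MSTRG.14753. It was -1.61 in MSTRG.1477, -1.56 in MSTRG.3775, and -1.54 in both MSTRG.17113 and MSTRG.11740. It was -1.49 in MSTRG.13503 and MSTRG.20371, -1.47 in MSTRG.23758, -1.46 in MSTRG.20702 and MSTRG.23307, -1.45 in MSTRG.22046 and -1.43 in MSTRG.8494. The smallest were -1.09 in MSTRG.4490, -1.04 in MSTRG.18679 and -0.99 in MSTRG.10019. A lower change in Kauai was called in 1.16% of all tested genes. The count of 18 ranged from 0 to 19 with 1 library left out in turn. Library size as the only scaling, and a fit of only the compared groups, called no member. Groups of 3 pools are too small for a test of single pools that lie far from the others.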

How the results depend on the processing

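The direction of the 22 results of single named transcripts that were recomputed was the same under all alternatives run, and 6 of them also kept an adjusted p under 0.05 throughout. With 1 library left out in turn, the number of called members ranged from 20 to 41 for Mangaia day 7 against day 4, 10 to 27 for Kauai, 0 to 4 between populations at day 4, 0 to 14 at day 7 and 0 to 19 for the difference in change. The number of members ranged from 100 to 107, and their share of gene read pairs from 37.4% to 38.5% in Mangaia controls, 35.3% to 37.3% at day 4 and 33.6% to 34.4% at day 7, and from 40.6% to 42.3%, 36.4% to 38.8% and 31.3% to 32.4% in Kauai. Between populations at day 4 the likelihood ratio test called 5, DESeq2 14 and limma voom 2 members in place of 0. At day 7 these tests called 13, 31 and 16 in place of 5, while library size alone called 0, no filter 3 and edgeR's filterByExpr 13. Shares over all tested genes are not given for these alternatives, so the counts show only how the calls depend on the method. Fits of only the compared groups called 8 members in Mangaia (8 of the 35), 11 in Kauai (10 of the 22), 0 between populations at day 7 and 0 for the difference in change, for which library size alone also called 0. Without Mangaia day 7 pool 2 and Kauai day 4 pool 2 together, chosen after seeing the data, the last 2 counts were 1 and 4. The cause of these differences was not tested. A minimum of 500 CPM gave 257 members and one of 2000 CPM 45. Over all read pairs of a library, the members held 26.7%, 25.9% and 24.0% in Mangaia controls, day 4 and day 7, and 28.8%, 26.4% and 23.2% in Kauai. Without the 3 most abundant members the shares were 29.3%, 29.0% and 27.4%, and 30.8%, 27.9% and 27.5%. With the strand counts summed, and divided by 2 for genes without a strand, they were 36.2% in Mangaia controls, 32.5% at day 7, 39.4% in Kauai controls and 30.7% at day 7. That alternative was chosen after seeing the data.

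The replicate numbers showed no clear pairing of the infested libraries. Over 12 pairs of same-numbered libraries, the correlation of their deviations from the group means ran from -0.514 to 0.263, with 3 over 0.1. Control libraries were not part of this check. With the replicate number as a block, 26 members were called in Mangaia, 15 in Kauai, 0 between populations at day 4, 0 at day 7 and 9 for the difference in change.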

Other observations

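At day 7, 25 genes that were not members had a mean of at least 1000 CPM in both populations. MSTRG.8413 had means of 12.1 CPM in Mangaia controls, 7017 CPM at day 4 and 9207 CPM at day 7, and of 13.4, 2332 and 3237 CPM in Kauai. MSTRG.6551 went from 298 to 3734 and 4030 CPM in Mangaia and from 234 to 2144 and 5196 CPM in Kauai. MSTRG.20602 lay near the threshold in controls, at 927 CPM in Mangaia and 1367 CPM in Kauai, and reached 6127 and 4118 CPM at day 7. These genes were picked for their day 7 levels, so no test is given, and the identifiers carry no names in the sources used here.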
